A study of Homo sapiens with 11 samples.

Results

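The proteasome genes described here code for the subunits of the 20S core, the interferon-inducible catalytic subunits, the 19S regulatory particle, the assembly chaperones, and the activators and the inhibitor of the core. They were chosen by gene symbol, and each gene was represented by the probe set listed with that gene alone that had the highest mean over all 11 arrays. Of 48 symbols, 43 were measured, among 19775 genes in all. PSMA6 and PSME2 lay only on probe sets listed with a further gene (PRORP and MIR7703), and PSMA6, PSME2, PSMC5, PSMD7 and PSMD13 were not analysed here.

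RNA came from Reh cells, an established line of B-cell precursor leukaemia that carries the ETV6-RUNX1 fusion. All 4 groups, the control included, were derived from Reh cells made to express miR-125b stably by viral infection. On top of this they received, with Lipofectamine, a precursor oligonucleotide of scrambled sequence at 66 µM (control, n = 2), of miR-99a at 66 µM (n = 3), of miR-100 at 66 µM (n = 3), or of miR-99a and miR-100 at 33 µM each (the combination, n = 3). The oligos were added again after 72 h and the cells were harvested 48 h after that. The labels speak of incubation in triplicate but do not say that replicates were separate cultures, so p-values measure only the spread between these samples, which may be technical. All groups rest on 1 cell line, and in bulk RNA fewer cells expressing a gene and less of its RNA per cell cannot be told apart.

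The proteasome is the large protease that degrades proteins tagged with ubiquitin. Its 20S core is a barrel of stacked rings, in which the alpha subunits form the gate and the beta subunits PSMB5, PSMB6 and PSMB7 cut peptide bonds inside the chamber. Lymphoid cells can replace these by PSMB8, PSMB9 and PSMB10, which makes the immunoproteasome and changes which peptides are offered for antigen presentation. The 19S particle caps the barrel. Its base holds the ATPases that unfold substrates, and its lid holds PSMD14, the enzyme that removes ubiquitin chains. Proteasome inhibitors are used as drugs in blood cancers.

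The mature human forms of the transfected microRNAs are shown because they define the groups, with the seed (bases 2 to 8) in capitals, as listed in RefSeq (GRCh38.p14).
hsa-miR-99a-5p: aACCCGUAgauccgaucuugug
hsa-miR-100-5p: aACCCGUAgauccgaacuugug
hsa-miR-125b-5p: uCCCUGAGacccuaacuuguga
The mature miR-99a lies at chr21:16539101-16539122 on the plus strand and miR-100 at chr11:122152275-122152296 on the minus strand. They share the seed and differ at a single base, U16A, counted from the 5′ end of miR-99a. MiR-125b, present in every group, has another seed. Mature microRNAs were not measured here, so the arrays do not check the transfection.

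The deposited table held log2 values of 11 Affymetrix whole-genome arrays with array medians of 5.95 to 5.984. Marker genes matched the labelled cell type: 10 of 11 measured B-lineage genes had a mean above 8, against 0 of 8 T and NK cell genes, 0 of 6 myeloid, 0 of 3 erythroid and 0 of 6 fibroblast and epithelial genes. The B-lineage list averaged 10.51 to 10.74 per array, and no other list exceeded 6.24 on any array. The 3 arrays numbered replicate 3, which exist for the treatments only, stood apart from replicates 1 and 2 over the whole transcriptome. The control had no array of that number, and its comparison with the treatments is unbalanced for this reason. Differences from control are therefore also given for replicates 1 and 2 alone, for the named genes and for most classes.

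All 43 measured proteasome genes had a mean above 8, a level reached by 28.1% of all genes. The median of their means was 10.37 against 6.4 over all genes. The lowest mean was 8.16 for PSMD5, a chaperone of the 19S base, and the highest 12.63 for PSMB1, a structural beta subunit. Probe sets bind with different strength, and one gene's level is therefore not set against another's. The range of a gene over the arrays ran from 0.19 for ADRM1, the ubiquitin receptor of the 19S base, to 0.96 for PSMG2, a chaperone of the alpha ring. The map of deviations over genes and arrays shows where the low and high arrays of each gene lie.

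**Figure D1:**
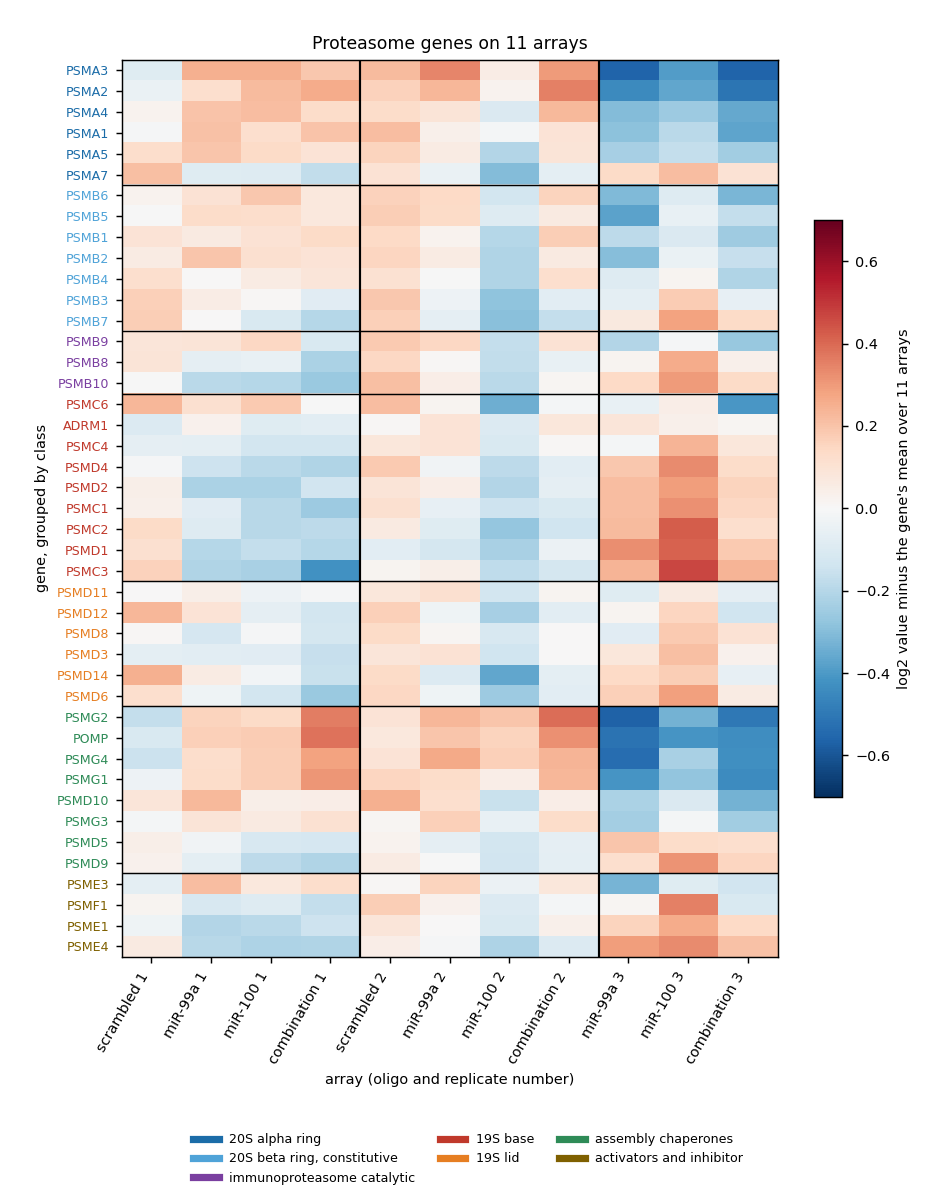
Deviation of each of the 43 proteasome genes (rows, grouped by class) from its own mean over 11 arrays (columns, ordered by replicate number), on the log2 scale. Blue cells in the 3 right-hand columns mark the low values of alpha subunits and core chaperones on replicate 3 arrays, and red cells the high values of most 19S base subunits there.

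Against the scrambled control, the proteasome genes lay slightly lower with each treatment, and no single gene passed the test. With miR-99a 38 of 43 genes had a mean below control, with miR-100 40, and with the combination 38. The median log2 difference was -0.091, -0.099 and -0.098. Over all genes it was -0.006, -0.008 and -0.004, but over the 5553 genes with a mean above 8, where all proteasome genes lie, it was -0.049, -0.062 and -0.07, with 74.1%, 78.3% and 72.3% of them lower. The 3 treatments share the same 2 control arrays, so these values are not independent of each other. Without the replicate 3 array of miR-99a, 25 of 43 were lower with that oligo. With quantile normalization of the arrays only 27, 28 and 27 of the 43 genes were lower and the medians were -0.025, -0.022 and -0.051.

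In limma, 0 of 43 proteasome genes had a Benjamini-Hochberg adjusted p under 0.05 in any of these comparisons, where the share called over all genes was 0%. At an unadjusted p under 0.05 there were 0, 1 and 3 proteasome genes for miR-99a, miR-100 and the combination, against 198, 305 and 724 over all genes. The median difference of the mean of all treatments was -0.101, with 37 of 43 genes lower, 0 called (0% over all genes) and 2 at an unadjusted p under 0.05. An intensity trend, a filter on dim genes, or the mean of all probe sets of a gene gave 0 called proteasome genes as well. Fits that took the replicate number into account did call some with the combination, among them 7 of 43 with a term for replicate 3 and 3 of 43 in replicates 1 and 2 alone, described further on.

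PSMD12, a scaffold subunit of the 19S lid, had the smallest p with miR-100 and with the combination. It read 9.96 and 9.89 in control, 9.83, 9.7 and 9.75 with miR-99a, 9.67, 9.5 and 9.88 with miR-100, and 9.6, 9.66 and 9.59 with the combination. All 9 treated arrays lay below both control arrays, the replicate 3 array of miR-100 only just. The difference was -0.17 ± 0.10 (SE, 95% interval -0.39 to 0.05) for miR-99a, -0.25 ± 0.10 (-0.46 to -0.03) for miR-100 and -0.31 ± 0.10 (-0.53 to -0.10) for the combination, each with an adjusted p of 1.0 in limma. With a term for replicate 3 the combination gave -0.34 ± 0.09 (adjusted p 0.0404), and in replicates 1 and 2 alone -0.30 ± 0.09 (adjusted p 0.0748). PSMC6, an ATPase of the 19S base, was the other gene with all treated arrays below control. It read 10.72 and 10.71 in control, 10.61, 10.51 and 10.44 with miR-99a, 10.68, 10.15 and 10.54 with miR-100, and 10.49, 10.48 and 10.09 with the combination. Its difference with the combination was -0.37 ± 0.15 (adjusted p 1.0), and -0.23 ± 0.11 in replicates 1 and 2 alone (adjusted p 0.322). Such a full separation from control, on the lower side, held for 1.6% of all genes, 3.3% of genes with a mean above 8 and 2 of 43 proteasome genes. On the higher side it held for 1.31%, 0.144% and 0 of 43.

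PSMB3, a structural beta subunit, was among the 3 smallest p-values in every comparison with control. It read 11.21 and 11.23 in control, 11.09, 11 and 10.97 with miR-99a, 11.05, 10.76 and 11.22 with miR-100, and 10.96, 10.97 and 10.98 with the combination. The miR-99a and combination arrays lay below control without overlap, while the replicate 3 array of miR-100 lay between the control arrays. The differences were -0.19 ± 0.11, -0.21 ± 0.11 and -0.25 ± 0.11, with adjusted p of 1.0, and -0.17, -0.31 and -0.25 in replicates 1 and 2 alone (each ± 0.09, adjusted p 0.569, 0.112 and 0.154). ADRM1 ran the other way with miR-99a, at 8.54, 8.61 and 8.59 against 8.42 and 8.52 in control, a difference of 0.11 ± 0.07 (adjusted p 1.0; 0.10 ± 0.08 in replicates 1 and 2 alone), and read 8.43, 8.42 and 8.55 with miR-100.

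Within a single treatment more genes were separated from control on every array. With miR-99a 7 of 43 proteasome genes lay below control on every array and 1 above, against 7.88% and 7.55% of all genes and 11.4% and 1.26% of genes with a mean above 8. With miR-100 there were 4 below (6.19% of all genes) and 0 above (7.18%), and with the combination 11 below (11.4%) and 0 above (9.11%). Among genes with a mean above 8 the shares were 7.96% below and 0.702% above with miR-100, and 21.1% and 1.57% with the combination, so the proteasome genes lay near the shares of other bright genes. Among the 11 were lid subunits PSMD6, PSMD12 and PSMD14, beta subunits PSMB3 and PSMB7, and the immunoproteasome subunit PSMB8.

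PSMD14, the deubiquitinase of the lid, read 10.91 and 10.8 in control and 10.5, 10.59 and 10.6 with the combination, which separated the groups. With miR-99a it read 10.72, 10.57 and 10.8 and with miR-100 10.64, 10.3 and 10.83, both overlapping control. Its differences were -0.16 ± 0.13, -0.26 ± 0.13 and -0.29 ± 0.13 (adjusted p 1.0 in each). With a term for replicate 3 the combination gave -0.35 ± 0.10 (adjusted p 0.0459), and replicates 1 and 2 alone gave -0.31 ± 0.10 (adjusted p 0.113).

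The catalytic subunits, whose values in each array follow further on, had means below control with every oligo over all arrays, and none passed the test (adjusted p 1.0 in limma for each). For miR-99a, miR-100 and the combination, the log2 difference was -0.12, -0.09 and -0.09 for PSMB5 (each ± 0.15) and -0.13, -0.11 and -0.20 for its counterpart PSMB8 (each ± 0.12). It was -0.12, -0.10 and -0.12 for PSMB6 (each ± 0.17) and -0.12, -0.14 and -0.23 for PSMB9 (each ± 0.13). For PSMB7 it was -0.16, -0.21 and -0.24 (each ± 0.15) and for PSMB10 -0.11, -0.14 and -0.14 (each ± 0.17). All 3 immunoproteasome subunits and all 13 measured genes of the constitutive core were thus lower in mean with each oligo, where quantile normalization left 3 of 3 immunoproteasome subunits and 12, 13 and 13 of the 13 core genes lower (to 2 decimals). Of the 15 measured 19S genes 13, 15 and 14 were lower, but only 8, 7 and 8 after quantile normalization. In replicates 1 and 2 alone 6, 11 and 7 of the 13 core genes were lower. PSME1, part of the interferon-inducible cap of the core, stood at -0.05, -0.04 and -0.02 (each ± 0.14). In replicates 1 and 2 alone genes with a mean above 8 had medians of -0.041, -0.141 and -0.063, and the 19S base had -0.159, -0.275 and -0.232. The median of the immunoproteasome subunits there was -0.142, -0.229 and -0.23.

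Leaving out replicate 3 turned the sign for some of these genes. In replicates 1 and 2 alone PSMB5 stood at 0.05, -0.07 and -0.02 for miR-99a, miR-100 and the combination (each ± 0.09), and PSMB6 at 0.03, -0.06 and 0.02 (each ± 0.09). PSMB8 stood at -0.14, -0.23 and -0.25 (each ± 0.09), PSMB9 at -0.02, -0.15 and -0.14 (each ± 0.10) and PSMB10 at -0.18, -0.30 and -0.23 (each ± 0.10). PSME1 lay further from 0 than over all arrays, at -0.13, -0.18 and -0.08 (each ± 0.09). None of these passed limma's test, with adjusted p of 0.127 to 0.979.

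MiR-100 and miR-99a, which share a seed and were given at the same dose, could not be told apart on these genes. The median difference, miR-100 minus miR-99a, was -0.028 over the 43 genes, with 32 lower, and -0.018 over genes with a mean above 8, with 65.2% lower. None of the 43 passed limma's test, and none had an unadjusted p under 0.05 (0% called and 194 at an unadjusted p under 0.05 over all genes). The 3 smallest p-values were those of ADRM1 (-0.12, interval -0.26 to 0.03), PSMD8, a lid subunit (0.08, -0.11 to 0.28), and PSMD14 (-0.10, -0.36 to 0.16). PSMD8 read 10.46, 10.59 and 10.5 with miR-99a and 10.57, 10.47 and 10.76 with miR-100, an overlap. The count rested on the replicate 2 array of miR-100, without which 12 of 43 genes were lower and PSMD14 stood at 0.04. The intervals leave room for differences of either sign.

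Between the combination and the single oligos, equal in total dose, no proteasome gene passed limma's test either. The median difference from the mean of the single oligos was -0.016, with 29 of 43 lower, 0 called (0% over all genes), and 0 of 43 against 451 of all genes at an unadjusted p under 0.05. PSMD12 (-0.11 ± 0.08), PSMC6 (-0.14 ± 0.12) and PSMF1, an inhibitor of the core (-0.11 ± 0.10), had the smallest p-values, with adjusted p of 1.0. PSMF1 read 8.63 and 8.78 in control, 8.5, 8.64 and 8.62 with miR-99a, 8.52, 8.51 and 8.96 with miR-100 and 8.45, 8.59 and 8.5 with the combination, so that the replicate 3 array of miR-100 was the highest of the 11. All 9 subunits of the 19S base lay below 0, with a median of -0.047, while the 20S core stood at 0.011 with 6 of 13 lower (-0.05 with 10 of 13 lower after quantile normalization, and 5 of 9 base genes lower). In replicates 1 and 2 alone the base median was -0.001 with 6 of 9 lower. Without the replicate 3 array of miR-100 only 19 of 43 were lower.

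Comparing each treated array with the scrambled array of the same number removed the unbalanced replicate 3. The shared number is a label only, since control and treated arrays of the same number did not deviate together in every case. In these 6 differences, which share the control arrays in threes and have no test, 19 of 43 genes (44.2%) were lower every time, against 16.5% of all genes and 38.5% of genes with a mean above 8. These 19 were unevenly spread over the classes. They included 5 of 9 subunits of the 19S base, 4 of 6 of the lid, 2 of 3 immunoproteasome subunits and 3 of 4 activators and inhibitors. Of the alpha ring only PSMA7 was among them, and of the constitutive beta ring PSMB3 and PSMB7.

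PSMG2, PSMG4 and POMP, 3 of the 5 chaperones of the core, were higher in 6 of 6 differences and were the only proteasome genes so. That is 7% of 43, near the 8.6% of all genes and the 6.8% of genes with a mean above 8. POMP, the maturation protein that helps complete the core, read 12.02 and 12.2 in control and 12.29, 12.32, 12.3, 12.28, 12.5 and 12.44 on the treated arrays numbered 1 and 2, so that all 6 lay above control. PSMG2 read 11.97 and 12.23 in control and 12.27 to 12.53 on those 6 arrays. PSMG4, a partner in alpha ring assembly, read 9.79 and 10.03 in control and 10.06 to 10.22 there. For each of the 3 genes the replicate 3 arrays reversed the picture, with POMP at 11.61, 11.71 and 11.69, below both control arrays.

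The size of the shift varied with the array. The replicate 2 array of miR-100 had 40 of 43 genes below the scrambled array of that number, with a median of -0.261, while the other 5 treated arrays had 25 to 31 lower and medians of -0.116 to -0.049. Of genes with a mean above 8, 90.8% were lower on that array too, with a median of -0.19. The alpha ring stood at 0.165, 0.156 and 0.156 for miR-99a, miR-100 and the combination in replicate 1 and at -0.068, -0.23 and 0.005 in replicate 2. The 19S lid had the same sign throughout, at -0.131, -0.141 and -0.244 in replicate 1 and -0.148, -0.322 and -0.169 in replicate 2. The 19S base did too, at -0.138, -0.23 and -0.233, then -0.053, -0.255 and -0.154. The medians of the immunoproteasome subunits and of the activators and inhibitor were also below 0 on every one of these arrays. So was that of genes with a mean above 8, at -0.039, -0.084 and -0.068, then -0.035, -0.19 and -0.052.

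**Figure D2:**
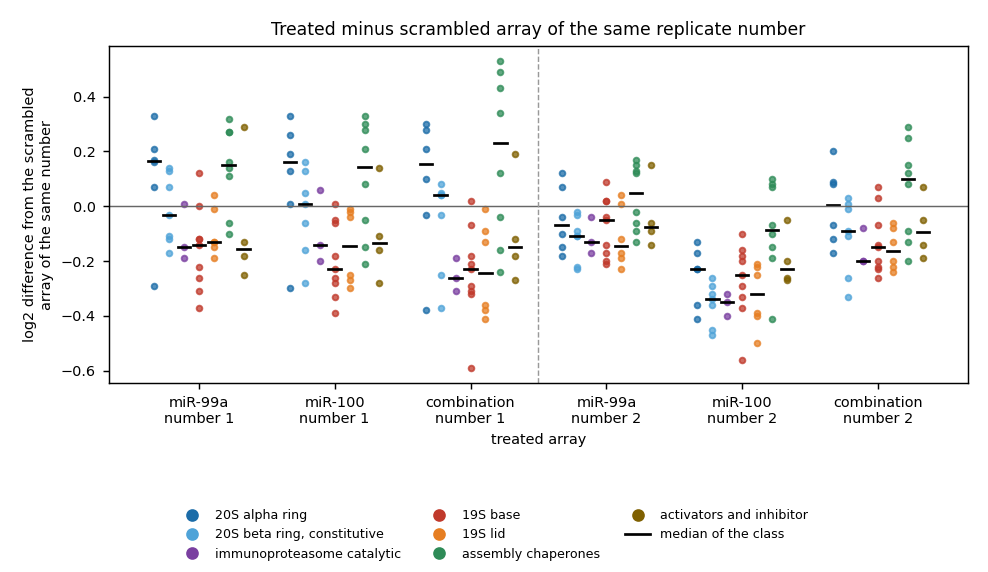
Log2 difference of each treated array from the scrambled array of the same replicate number (y axis), for the 6 treated arrays numbered 1 and 2 (x axis). Points are genes coloured by class and black bars are class medians. The medians of the 19S lid, the 19S base, the immunoproteasome subunits and the activators and inhibitor lie below 0 on all 6 arrays. The chaperone medians lie above 0 on 5 of 6, with -0.084 on the replicate 2 array of miR-100.

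A fit restricted to the 8 arrays numbered 1 and 2 called a few proteasome genes. With the combination, 3 of 43 passed in limma, against 1.47% of all genes (0.92% higher, 0.546% lower). PSMG2 rose by 0.41 ± 0.09 (adjusted p 0.0248), POMP rose by 0.37 ± 0.08 (adjusted p 0.0301), and PSMB7, the subunit with trypsin-like activity, fell by 0.35 ± 0.08 (adjusted p 0.0366). With replicate 3 included, POMP stood at 0.10 ± 0.28 and PSMB7 at -0.24 ± 0.15. A term for replicate 3 over all arrays called 7 of 43 genes with the combination (2.24% of all genes), namely POMP and PSMG2 higher and PSMB7, PSMC3, PSMD6, PSMD12 and PSMD14 lower. For neither fit was the share called counted among genes with a mean above 8, where all 43 genes lie. The shares over all genes are therefore not a matched background. PSMB7 read 11.22 and 11.22 in control, 10.85 and 10.89 with the combination, 11.06 and 10.99 with miR-99a, and 10.95 and 10.76 with miR-100, so all 6 treated arrays lay below control. In the fit of replicates 1 and 2, PSMB7 was the only call for the mean of all treatments (-0.30 ± 0.07, adjusted p 0.0425, against 1% of all genes called). PSMA7 at -0.28 (adjusted p 0.0526) and PSMD12 at -0.27 (adjusted p 0.0533) lay just outside.

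For each single oligo in that fit, 0 proteasome genes were called (0% of all genes in both), with 10 of 43 for miR-99a and 23 of 43 for miR-100 at an unadjusted p under 0.05, against 1902 and 3412 of all genes. The largest differences with miR-100 were PSMD14 at -0.38 ± 0.10, PSMB7 at -0.37 ± 0.08, PSMA7 at -0.35 ± 0.09 and PSMD12 at -0.35 ± 0.09, each with an adjusted p of 0.106. All 15 measured 19S subunits were lower with miR-100 and 14 of 15 with the combination, with medians of -0.275 and -0.232. Of genes with a mean above 8, 79% and 63.8% were lower, with medians of -0.141 and -0.063. The 20S core stood at -0.154 and -0.009 in that fit, which was run without quantile normalization only. MiR-100 was below miR-99a for 43 of 43 genes (median -0.121), 0 of them called (0.00506% of all genes were) and 3 at an unadjusted p under 0.05, where 92.3% of genes with a mean above 8 were lower too (median -0.10).

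The replicate number separated the proteasome genes far more than any oligo. Over the 9 treated arrays, with treatment in the model, replicate 3 differed from replicates 1 and 2 for 33 of 43 proteasome genes in limma (76.7%), against 29.3% of all genes and 66.3% of genes with a mean above 8. Of these, 16 were higher and 17 lower, where 17.1% and 12.2% of all genes and 37.4% and 28.9% of genes with a mean above 8 were. Treated arrays of the same number deviated together, so this contrast sets 1 set of arrays against 2 sets. The fit takes the arrays as independent, and its p-values are too small as a measure of the spread between replicate sets. The signs of the called genes mostly followed the parts of the particle. Of the 20S core 9 of 13 genes were lower and 2 higher, with a median of -0.27. Of the 15 measured 19S genes under the symbol rule 8 were higher and 0 lower, with a median of 0.194. SEM1, a lid subunit outside that rule, was lower.

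In the alpha ring, 5 of 6 measured genes were lower. PSMA3 read 10.82, 10.98 and 10.81 on the replicate 3 arrays of miR-99a, miR-100 and the combination, 11.43 to 11.71 on the 6 treated arrays numbered 1 and 2, and 11.29 and 11.6 in control. The replicate 3 arrays lay below all others. The difference was -0.73 ± 0.07 (adjusted p 6.33e-12), the lowest of the 43. PSMA2 read 11.7, 11.79 and 11.64 in replicate 3 and 12.18 to 12.51 in replicates 1 and 2, a difference of -0.64 ± 0.07 (adjusted p 2.03e-10), also without overlap. PSMA4, PSMA1 and PSMA5 followed at -0.43, -0.39 and -0.27. PSMA7 was the exception, at 11.61, 11.69 and 11.58 in replicate 3 against 11.17 to 11.43, a difference of 0.28 ± 0.07 (adjusted p 0.00102).

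The median of the alpha ring was -0.409, and -0.22 after quantile normalization. In the constitutive beta ring PSMB6, PSMB5, PSMB1 and PSMB2 were lower, by -0.33 to -0.22, PSMB7 was higher by 0.30, and PSMB3 (0.09) and PSMB4 (-0.10) did not pass. The beta ring median was -0.222, -0.067 after quantile normalization and -0.121 without the replicate 3 array of miR-99a. PSMB4 changed sign under quantile normalization, to 0.12 (adjusted p 0.135).

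The ATPase base of the 19S particle moved the other way. Of 9 measured base genes 6 were higher, 0 lower, with a median of 0.356. PSMC3, an ATPase, read 9.86, 10.08 and 9.86 in replicate 3, 9.19 to 9.66 in replicates 1 and 2 and 9.78 and 9.64 in control. The replicate 3 arrays lay above all others, with a difference of 0.50 ± 0.07 (adjusted p 2.43e-07). PSMD1, the large scaffold that docks ubiquitin receptors, read 9.72, 9.81 and 9.58 against 9.17 to 9.36, a difference of 0.47 ± 0.07 (adjusted p 2.55e-07). PSMC2 read 11.06, 11.26 and 10.96 against 10.57 to 10.76 (0.41 ± 0.07, adjusted p 3.66e-06), and PSMC1 9.97, 10.08 and 9.9 against 9.5 to 9.69 (0.37 ± 0.07, adjusted p 1.41e-05). For neither ATPase did the replicate 3 arrays overlap the others of the treatments. The ubiquitin receptors differed, with PSMD4 higher by 0.35 and ADRM1 at 0.05, and PSMC6 (-0.13) and PSMC4 (0.15) did not pass.

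The lid lay between, with 2 of 6 higher, 0 lower and a median of 0.146. SEM1, a lid subunit outside the symbol rule and so outside these counts, was lower. It read 10.49, 10.61 and 10.56 in replicate 3 against 10.99 to 11.29 in replicates 1 and 2 of the treatments. PSMD6 was higher by 0.30 ± 0.07 (adjusted p 0.000409). PSMD14 read 10.8, 10.83 and 10.6 in replicate 3 and 10.3 to 10.72 in replicates 1 and 2, an overlap, with a difference of 0.19 ± 0.07 (adjusted p 0.0353). PSMD14's call was lost without replicate 2 or 3 of miR-99a, replicate 2 or 3 of miR-100 or replicate 1 of the combination (adjusted p 0.0584 to 0.416), and with an intensity trend (adjusted p 0.0635).

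All 5 chaperones of the core were lower in replicate 3. PSMG2 read 11.57, 11.8 and 11.63 against 12.27 to 12.53 in replicates 1 and 2 (-0.71 ± 0.07, adjusted p 1.14e-11). POMP read 11.61, 11.71 and 11.69 against 12.28 to 12.5 (-0.69 ± 0.07, adjusted p 8.05e-12). The replicate 3 arrays of both genes lay below every other array, control included. PSMG4 read 9.41, 9.71 and 9.51 against 10.06 to 10.22 (-0.60 ± 0.07, adjusted p 6.29e-10), although the mean of all its probe sets gave -0.08 (adjusted p 0.261). PSMG1 was lower by -0.55 and PSMG3 by -0.25. Of the chaperones of the 19S base PSMD9 (0.30) and PSMD5 (0.23) were higher and PSMD10 was lower (-0.27).

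Among the activators, PSME4, the nuclear cap known as PA200, read 8.99, 9.03 and 8.9 in replicate 3 against 8.48 to 8.69 (0.43 ± 0.07, adjusted p 8.17e-07), without overlap. PSME1, a subunit of the interferon-inducible cap PA28, read 11.83, 11.93 and 11.82 against 11.47 to 11.71 (0.29 ± 0.07, adjusted p 0.000771), also without overlap. PSME3, the nuclear form of PA28, was lower by -0.28 (adjusted p 0.00114) on its chosen probe set. Its other probe sets, with means of 7.79, 7.49 and 7.07, gave 0.06, 0.11 and -0.20, so they disagree on this gene. PSMF1 stood at 0.16 (adjusted p 0.0916). Without the replicate 3 array of miR-100 the median of these 4 genes fell from 0.224 to 0.122.

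**Figure D3:**
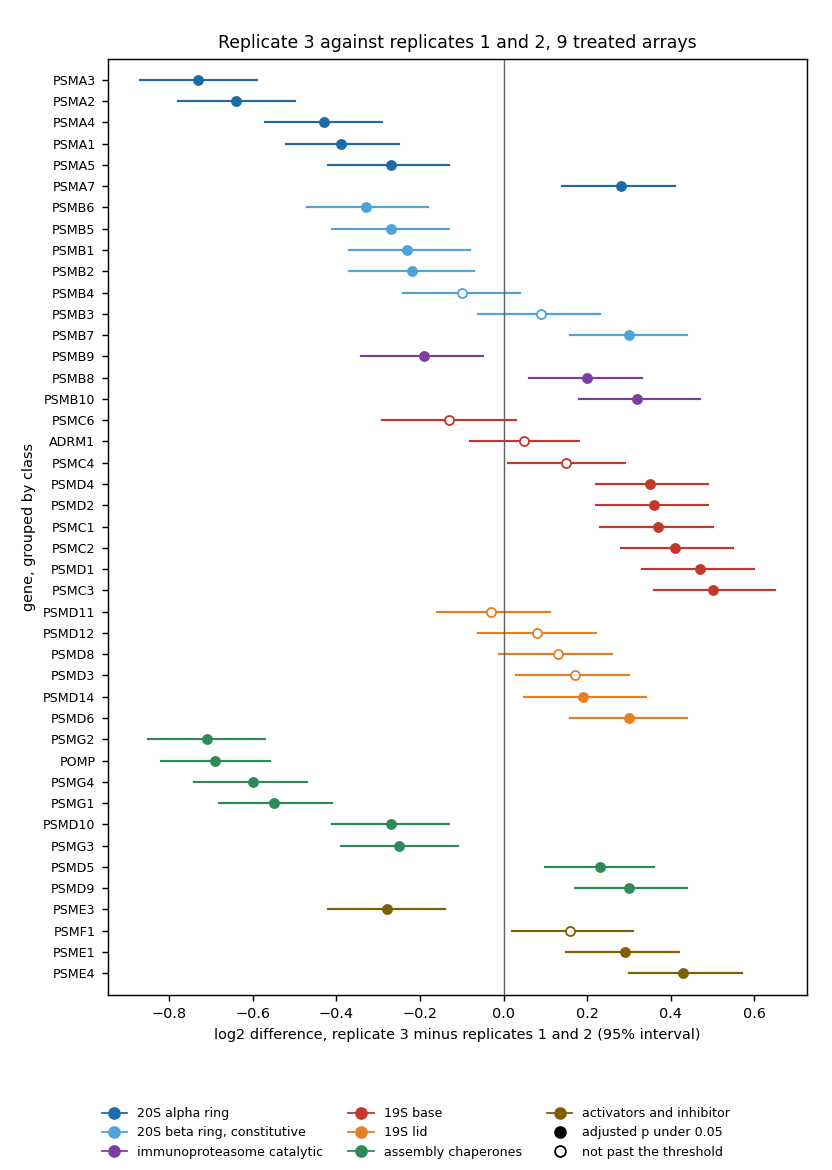
Log2 difference of replicate 3 from replicates 1 and 2 over the 9 treated arrays (x axis) for each proteasome gene (y axis), with 95% intervals from limma. Filled points have an adjusted p under 0.05; core chaperones and alpha subunits reach -0.73, and 19S base subunits reach 0.50.

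The direction held within the treatments for most genes. Taken separately in miR-99a, miR-100 and the combination, 33 of 43 genes had the same sign in all 3 (76.7%), 15 lower and 18 higher, against 49.9% of all genes and 73.3% of genes with a mean above 8. For 24 of 43 (55.8%) the replicate 3 arrays did not overlap the others, against 25.9% of all genes and 54.3% of those with a mean above 8. The shares are thus near those of other bright genes. PSMA3 differed by -0.85, -0.54 and -0.80 in the 3 treatments, POMP by -0.70, -0.58 and -0.78, and PSMC3 by 0.33, 0.67 and 0.51. The replicate 3 array of miR-100 lay higher than the others, with a median of 0.24 over the 43 genes and 0.23 over genes with a mean above 8, against -0.03 and -0.02 over the 43 genes for the other 2 treatments. The calls were sensitive to 1 array, since without the replicate 3 array of miR-99a 10 rather than 17 genes were called lower.

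The balance of core against cap restates the pattern as a single value per array. It comes from the same genes and arrays and is no separate support. It was not recomputed after quantile normalization. That scaling put the medians of replicate 3 minus replicates 1 and 2 at -0.16 for the core and 0.29 for the 19S genes. The median deviation of the 20S core genes minus that of the 19S genes was -0.43, -0.33 and -0.32 on the replicate 3 arrays. It was 0.19, 0.24 and 0.25 on the treated arrays numbered 1, 0.04, -0.01 and 0.16 on those numbered 2, and 0.01 and 0.07 in control. The 3 replicate 3 arrays were lowest in each treatment. As a sign of RNA quality, the ACTB probe sets at the 3′ end exceeded those at the 5′ end by 2.8, 2.52 and 2.85 there and by 2.45 to 3.17 over all 11 arrays. For GAPDH the difference was 0.71, 0.56 and 0.64 there and 0.52 to 0.63 on the other 8 arrays, so the replicate 3 arrays of miR-99a and the combination were the highest of all. The part of RNA quality, of the run or of the culture in these differences was not tested.

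Of the 3 catalytic pairs, PSMB6 with PSMB9 and PSMB7 with PSMB10 had the same sign in replicate 3, and PSMB5 with PSMB8 opposite signs. PSMB5, with chymotrypsin-like activity, read 10.05 and 10.23 in control, 10.19, 10.19 and 9.68 with miR-99a, 10.18, 9.97 and 10 with miR-100 and 10.13, 10.12 and 9.89 with the combination. Its replicate 3 difference was -0.27 ± 0.07 (adjusted p 0.00213), and -0.15 (adjusted p 0.208) without the replicate 3 array of miR-99a. Its immunoproteasome counterpart PSMB8 read 10.45 and 10.51 in control, 10.3, 10.38 and 10.38 with miR-99a, 10.32, 10.19 and 10.62 with miR-100 and 10.14, 10.31 and 10.4 with the combination. The difference was 0.20 ± 0.07 (adjusted p 0.0243), opposite in sign. PSMB8's call was lost without replicate 2 or 3 of miR-100 or replicate 1 or 3 of the combination (adjusted p 0.0685 to 0.348).

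PSMB6, with caspase-like activity, and its counterpart PSMB9 were both lower in replicate 3. PSMB6 read 11.29 and 11.42 in control, 11.36, 11.4 and 10.95 with miR-99a, 11.45, 11.13 and 11.17 with miR-100 and 11.33, 11.41 and 10.94 with the combination (-0.33 ± 0.07, adjusted p 0.000251). PSMB9 read 10.54 and 10.64, then 10.54, 10.6 and 10.25, then 10.6, 10.29 and 10.45, then 10.35, 10.55 and 10.19 in the same order of groups (-0.19 ± 0.07, adjusted p 0.0371). In miR-100 the replicate 3 array of either gene lay inside the range of the other 2. The PSMB9 call was lost without any single array of miR-99a, replicate 1 of miR-100 or replicate 2 or 3 of the combination (adjusted p 0.0612 to 0.361), and after quantile normalization (adjusted p 0.0729).

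PSMB7 and its counterpart PSMB10 were both higher. PSMB7 read 11.12, 11.33 and 11.19 in replicate 3 of the 3 treatments against 10.76 to 11.06 in replicates 1 and 2 (0.30 ± 0.07, adjusted p 0.00054). PSMB10 read 9.74 and 9.96 in control, 9.89, 10.04 and 9.88 in replicate 3 and 9.48 to 9.79 in replicates 1 and 2 (0.32 ± 0.07, adjusted p 0.000298). Neither gene overlapped between the replicate numbers within the treatments, but for both the replicate 3 values fell near the control arrays.

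**Figure D4:**
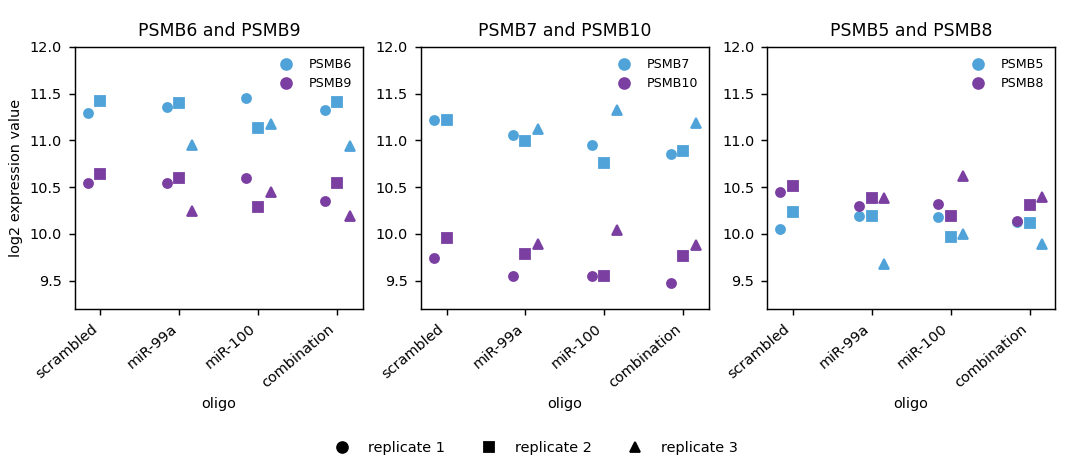
Log2 expression value (y axis) of the constitutive catalytic subunits PSMB6, PSMB7 and PSMB5 and their immunoproteasome counterparts PSMB9, PSMB10 and PSMB8, one point per array, by oligo (x axis) and replicate number (marker). Levels of different genes are not comparable; replicate 3 is low for PSMB6 with miR-99a and the combination (10.95 and 10.94) and high for PSMB7 with miR-100 (11.33).

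Of the 83 probe sets of these genes, 40 were not the chosen ones, and 15 of the 40, in 12 genes, had a mean above 8. In replicate 3 against replicates 1 and 2, 14 of the 15 had the sign of the chosen probe set, with a median correlation of 0.94 over the arrays, which share the same libraries. Dimmer probe sets were not counted, and some of them, as for PSME3, had the other sign. The second probe set of POMP gave -0.73 and that of PSMD1 0.50. For PSMD12 the second probe set gave -0.26 where the chosen one gave 0.08 (r = 0.53), so the 2 disagree on this gene, although both lay below control in the mean of treatments (-0.21 and -0.24). The chosen probe sets of PSMA1, PSMA7, PSMD4 and PSME3 carry the array maker's x suffix, given to designs that may also detect other transcripts.

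Promoters were searched because genes of the particle are known to be driven together by NFE2L1, which is activated when proteasome function is low, and by NF-Y, which binds CCAAT boxes. RefSeq windows from 250 bases before to 50 after the start (GRCh38.p14) were found for 37 of the 43 genes. The core of the NFE2L1 element, TGACNNNGC on either strand, occurred in 14 of 37 (37.8%), against 18.4% of the 15384 tested genes with a window. It was present in 4 of 14 genes lower in replicate 3, 5 of 13 higher ones and 5 of 10 that did not pass. CCAAT on either strand occurred in 18 of 37 (48.6%, against 41.7%). Of the genes lower in replicate 3 it was found in 10 of 14 (71.4%), of those higher in 4 of 13 (30.8%) and of those that did not pass in 4 of 10 (40%). The core of the interferon-stimulated response element was found in 6 of 37 (16.2%, against 3.98%). These are matches of letters, chosen for search with the results known, and no test was made of them.

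The stretches around the matches in genes named above are given 5′ to 3′ on the strand of the gene, with the CCAAT box or its reverse complement ATTGG in capitals. PSMA3 and PSMA2 were lower in replicate 3, PSMC3 and PSMC2 higher.
PSMA3, chr14:58244788-58244832 (plus strand): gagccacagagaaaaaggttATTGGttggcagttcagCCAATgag
PSMA2, chr7:42932234-42932278 (minus strand): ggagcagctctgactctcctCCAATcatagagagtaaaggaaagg
PSMC3, chr11:47426529-47426573 (minus strand): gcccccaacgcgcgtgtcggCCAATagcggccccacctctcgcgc
PSMC2, chr7:103347592-103347636 (plus strand): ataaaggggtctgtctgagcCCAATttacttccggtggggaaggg
The first box in each stretch began 35, 84, 114 and 31 bases before the start of the 4 genes, and the PSMA3 stretch holds a further one. The NFE2L1 element core, or its reverse complement, is in capitals in a gene lower (PSMG2), a gene higher (PSME4) and a gene not called (PSMD12) in replicate 3.
PSMG2, chr18:12658679-12658727 (plus strand): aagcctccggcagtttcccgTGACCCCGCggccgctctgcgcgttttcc
PSME4, chr2:53970999-53971047 (minus strand): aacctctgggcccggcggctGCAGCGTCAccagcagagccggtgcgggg
PSMD12, chr17:67366714-67366762 (minus strand): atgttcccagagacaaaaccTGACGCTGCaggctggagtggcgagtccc
The element began 39, 34 and 165 bases before the start of these genes, so it occurs in genes of either direction.

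Genes that work with the proteasome were taken from a list of 50, of which 43 were measured. In the comparisons with control 0 of 43 were called (0% of all genes), with 1 at an unadjusted p under 0.05 for the combination. This was UCHL5, a deubiquitinase bound to ADRM1, at -0.38 ± 0.15 (adjusted p 1.0). NFE2L1, the main activator of proteasome genes, stood at -0.05, -0.01 and 0.04 (each ± 0.14) for miR-99a, miR-100 and the combination, VCP, the p97 segregase, at -0.01, -0.06 and -0.05 (each ± 0.13) and USP14 at -0.03, -0.08 and -0.12 (each ± 0.09). In replicates 1 and 2 alone these were -0.11, -0.11 and -0.01 for NFE2L1, -0.08, -0.19 and -0.07 for VCP and 0.02, -0.14 and -0.07 for USP14, none past the test, and UCHL5 with the combination was -0.28 (adjusted p 0.182). In the fit of replicates 1 and 2, B2M, the light chain of MHC class I, rose by 0.45 ± 0.08 with the combination (adjusted p 0.014 in limma). That fit called 1.47% of all genes with the combination. B2M read 13.58 and 13.73 in control and 14.09 and 14.13 on those 2 combination arrays, but 13.55 on the replicate 3 array of the combination, below both control arrays.

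In replicate 3 against replicates 1 and 2, 25 of the 43 partner genes were called, 19 higher and 6 lower. Over all genes 29.3% were called, and over genes with a mean above 8, as most partner genes have, 66.3% (37.4% higher and 28.9% lower). SEM1, the small subunit of the 19S lid outside the symbol rule, was lowest, at 10.49, 10.61 and 10.56 against 10.99 to 11.29 (-0.59 ± 0.07, adjusted p 8.77e-10). TXNL1, a thioredoxin bound to the 19S particle, stood at -0.45, B2M at -0.42 and AKIRIN2, which brings proteasomes into the nucleus, at -0.40. The scaffold ECPAS was higher by 0.43 (adjusted p 8.32e-06). VCP, which pulls ubiquitinated proteins out of complexes, was higher by 0.23 (adjusted p 0.00929), and 5 of 7 p97 genes were called higher. Of the 6 regulators of proteasome genes 5 were higher, NFE2L1 by 0.22 (adjusted p 0.0135) and NFYA, a subunit of NF-Y, by 0.32 (adjusted p 0.000259). For miR-99a, miR-100 and the combination NFE2L1 read 9.62, 9.74 and 9.66 in replicate 3 and 9.5, 9.55 and 9.65 in replicate 2, an overlap. In replicate 1 it read 9.33, 9.28 and 9.39, and in control 9.4 and 9.67. Its difference thus rested largely on low replicate 1 arrays. USP14, the deubiquitinase of the 19S particle, stood at -0.04 (adjusted p 0.773). ECPAS and NFYA were named after their values were seen.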

How the data were processed

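The authors deposited a table of log2 expression values for 11 Affymetrix arrays, 54675 probe sets in all. The log2 scale was read from the range of 4.398 to 14.839, and no source used here states the summarisation, background correction or normalization. Per the labels' protocols, RNA was extracted with Trizol and labelled with the maker's one-cycle kits. Probe sets listed with 1 gene (41091) were kept, and the brightest represented each of 19775 genes. Gene names come from the platform annotation; 41037 probe sets matched RefSeq. Group means over all arrays were fitted with limma 3.58.1 (R 4.3.3, lmFit and eBayes). P-values were 2-sided, Benjamini-Hochberg adjusted over all genes and called under 0.05. The fit was run on simulated arrays with independent noise, no replicate 3 shift and planted changes larger than the differences from control seen here. That run checks the code only and gives no power or error rate for these data. Named genes were those called (at most 8 per comparison) or the 3 smallest p-values, 5 rises and 5 falls for replicate 3, and the catalytic pairs, PSMD14, POMP and PSME1. Members and lists were chosen with earlier results of these data known. Same-numbered arrays of different treatments deviated together (9 of 9 pairs, r 0.168 to 0.816). Once replicate 3 had its own term, the consensus correlation of same-numbered treated arrays was -0.127. The numbers were thus not shown to pair the treatments beyond replicate 3. The number of arrays limits the precision. Alternatives were another scaling, a filter on dim genes, the mean of all probe sets, an intensity trend, the replicate block, a term for replicate 3, the replicate number as a random block, replicates 1 and 2 only, the compared groups only, and leaving out each array.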

Additional observations from a re-analysis of the deposited data

How the results depend on the processing

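Control and treated arrays of the same number correlated at -0.152 to 0.438 in their deviations, above 0.1 in 3 of 6 pairs, so they are not taken as pairs. With the replicate block, limma called 10 of 43 proteasome genes in the combination (4.36% of all genes) and 7 in the mean of treatments (2.56%), with adjusted p of 0.0163 for PSMD12, 0.0143 for PSMD14 and 0.042 for PSMC6 in the combination; among treatments the block changed no call. Shares called among genes with a mean above 8 were not counted for the block or the following fits. A term for replicate 3 gave 7 in the combination (2.24%), and replicates 1 and 2 alone gave 3 and 1. That last fit also left 25 genes lower with miR-99a, put the median of miR-100 minus miR-99a at -0.121, and turned PSMD8 to -0.01 there.

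In replicate 3 against the others, quantile normalization moved the medians of the alpha and beta rings to -0.22 and -0.067. The mean of all probe sets moved them to -0.301 and -0.126, the chaperones to -0.257, and the genes called lower to 11. Leaving out 1 array gave 25 to 40 genes lower with miR-99a, 12 to 32 lower in miR-100 against miR-99a (PSMD14 from -0.23 to 0.04), and 19 to 39 lower in the combination against the single oligos. It gave 10 to 18 genes called lower in replicate 3, with medians of -0.313 to -0.121 for the beta ring, -0.506 to -0.341 for the chaperones and 0.122 to 0.291 for the activators and inhibitor. The causes were not tested. The replicate number as a random block, added after seeing the data, called 36 of 43 genes in replicate 3 (34.3% of all genes). Its correlation of -0.127 rests on replicates 1 and 2 only and so gives no spread between replicate sets. Of the summary values under 20 other settings, 444 kept their direction and side of the threshold or moved by less than the spread, and 21 did not. For named genes the numbers were 561 and 30. Fitting only the compared groups gave no separate value for the mean of treatments.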
